A study of Mus musculus with 2 samples.

Results

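Liver glycogen metabolism was followed through 9 genes, Slc2a2, Pgm1, Ugp2, Gyg, Gys2, Gys1, Gbe1, Pygl and Phka2, out of 43346 genes listed. They were chosen by symbol for their place in the pathway and by no rule on their levels, though earlier results of these data were known. RNA came from the livers of 2 B6NCrl mouse pups on the day of birth (postnatal day 0), pup 1 (replicate 1) and pup 3 (replicate 2). The labels name no treatment and no genotype beyond the strain, so the libraries form 1 group, and no test between conditions was possible. Each SmartSeq library, a method that amplifies cDNA by PCR, was made from 13 pg of liver RNA (1 cell-equivalent) above 200 nt in length, so each value averages over the cells of the organ. The labels speak of single livers yet list 1 donor entry for both, and differences between animals and between library preparations cannot be told apart.

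Glucose enters and leaves the hepatocyte through the transporter GLUT2, the product of Slc2a2. After phosphorylation it is moved to glucose 1-phosphate by phosphoglucomutase (Pgm1) and joined to UDP by UDP-glucose pyrophosphorylase (Ugp2), the donor from which glycogen is made. Glycogenin (Gyg) primes a new glycogen particle, glycogen synthase (Gys2 in liver, Gys1 in muscle and most other tissues) lengthens its chains and the branching enzyme (Gbe1) adds branch points. Liver glycogen phosphorylase (Pygl) removes glucose units again once phosphorylase kinase, whose liver regulatory alpha subunit is encoded by Phka2, has activated it. Hepatocytes fill with glycogen before birth and draw on it in the first hours of life, when the supply through the placenta has ended.

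Levels are given as TPM, a length-corrected measure of transcript abundance rescaled to 1000000 over all features other than spike-in RNAs, and as mean ± SD (n = 2). Total expected counts, which are estimated reads per gene, were 56959836 for pup 1 and 35973980 for pup 3. The material carried liver markers: 6 of 6 hepatocyte genes (among them Alb and Afp) were present in both libraries and held 12.6% of TPM in pup 1 and 10.5% in pup 3. Blood-forming cells were present too, with erythroid markers at 5.58% and 7.04%, neutrophil markers at 0.581% and 0.838% and macrophage markers at 0.0494% and 0.0555% of TPM. In such bulk RNA, fewer cells of a type and less RNA per cell cannot be told apart.

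Of the 9 genes, 6 were detected at 1 TPM or more in both libraries: Slc2a2, Pgm1, Ugp2, Gyg, Gys2 and Pygl. Gbe1 was detected in pup 3 alone, Phka2 in pup 1 alone and Gys1 in neither, so 6 of the 8 genes found in either library were found in both. Over all genes that share was 46.3%, and among genes with a mean of 30 to 300 TPM it was 81.7%, beside 6 of the 7 members that lie in that range. The 6 shared genes had means from 105.2 to 174.2 TPM. All 9 together held 0.106% of TPM in pup 1 and 0.0805% in pup 3 (0.0933% ± 0.0181), or 1060.41 and 804.5 TPM.

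**Figure D1:**
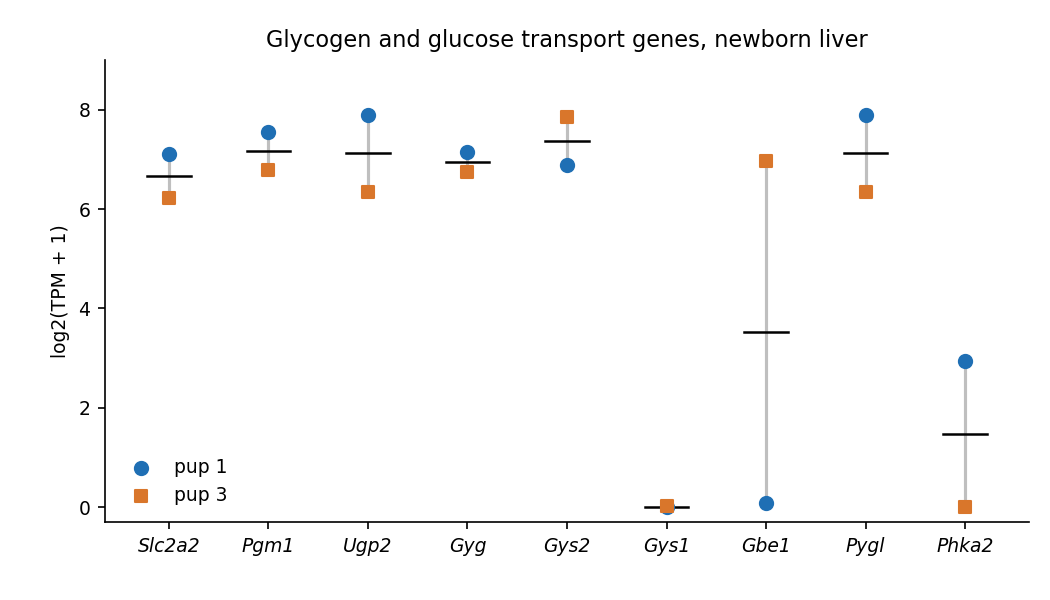
Level of each gene as log2(TPM + 1). Circles are pup 1, squares pup 3, the black bar is the mean of both and the grey line spans them. Slc2a2, Pgm1, Ugp2, Gyg, Gys2 and Pygl lie between 74.1 and 237.8 TPM in every library, Gbe1 and Phka2 each sit near 0 in 1 library and Gys1 sits at the bottom in both.

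The order of levels differed between the libraries. In pup 1 it ran from Ugp2 (237.8 TPM) through Pygl, Pgm1, Gyg and Slc2a2 to Gys2 (117.5 TPM), with Phka2 far below. In pup 3 Gys2 came first at 230.8 TPM, followed by Gbe1, Pgm1, Gyg, Pygl, Ugp2 and Slc2a2 (74.1 TPM). By mean the shared genes ran Gys2, Ugp2, Pygl, Pgm1, Gyg and Slc2a2, and every step between neighbours in that order was smaller than the SD of either. Glycogen synthase and phosphorylase exchanged places: the ratio of Gys2 to Pygl was 0.497 in pup 1 and 2.86 in pup 3.

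Slc2a2 (chromosome 3, 28697903 to 28731359 in GRCm38, plus strand) was at 136.2 TPM in pup 1 (14066 counts) and 74.1 TPM in pup 3 (3360 counts), or 105.2 ± 43.95 TPM. The gene total hides a change in the transcript model to which counts were assigned. In pup 1 the full-length coding model Slc2a2-201, with 11 exons, took 14056 counts and 99.9% of the gene's TPM, and the retained-intron model Slc2a2-203 took 10.3 counts. In pup 3 Slc2a2-203 took 3173 counts and 96.4% of TPM, and Slc2a2-201 was left with 187.4 counts and 3.57%. Slc2a2-203 is made of exons 8 to 10, the first part of exon 11 and 186 nt of the intron before exon 8. It thus holds 609 of the 1569 coding bases, and 1463 of its 1649 nt also lie in Slc2a2-201 as drawn in GENCODE M21. The sequences where the models part are shown because reads that span this point by several bases cannot fit both. Each line ends in the first 30 bases of exon 8 in lower case (chr3:28721703-28721807), and the capitals mark what comes before it: exon 7 in Slc2a2-201, and intron ending in the AG of the splice acceptor in Slc2a2-203.
Slc2a2-201: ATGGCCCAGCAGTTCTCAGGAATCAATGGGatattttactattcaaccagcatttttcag
Slc2a2-203: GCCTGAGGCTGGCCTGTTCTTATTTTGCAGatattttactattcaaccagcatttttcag
Counted on protein-coding models of 1000 nt or more alone, Slc2a2 stood at 136.1 TPM in pup 1 and 2.65 TPM in pup 3, which is 51.4-fold lower, whereas the gene totals lay 1.84-fold apart. How reads shared by both models were assigned was not tested. Exons 1 to 7 of Slc2a2-201 are not part of Slc2a2-203, so reads there could not be assigned to Slc2a2-203. Slc2a2-202, which holds most of these exons, had 0 counts in both libraries. At most the 187.4 counts of Slc2a2-201 can thus lie in these exons in pup 3.

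**Figure D2:**
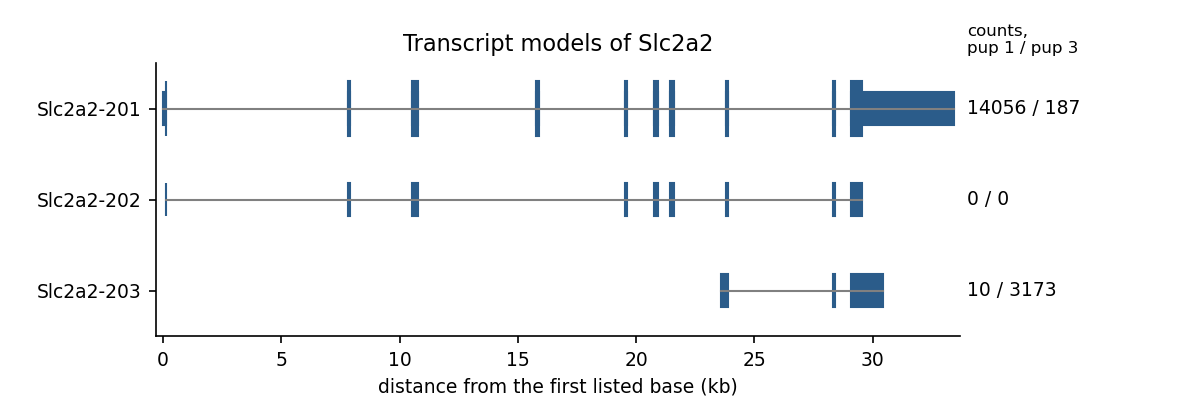
Transcript models of Slc2a2 in GENCODE M21, drawn to scale as distance in kb from the first listed base. Boxes are exons, taller where Slc2a2-201 is coding, and lines are introns; numbers at the right are expected counts in pup 1 and pup 3, with 14056 and 187 on the full-length model and 10 and 3173 on the short one. The counts come from the deposited tables, where Slc2a2-201 is 2573 nt long, while the model drawn is 5569 nt long.

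Such a change was found for 1 of the 6 shared genes. The leading transcript differed between the libraries for 30.3% of all genes detected in both that list more than 1 transcript. Retained-intron models held 50% or more of TPM for 0 of 4 members with such a model in pup 1, where the share of all genes was 9.66%, and for 1 of 4, Slc2a2, in pup 3, where it was 10.6%.

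The enzymes that make UDP-glucose were both present in both livers and lower in pup 3. Pgm1 (chromosome 4, 99929414 to 99987294, plus strand, listed as Pgm2 in older mouse nomenclature) was at 185.2 TPM in pup 1 and 109.7 TPM in pup 3, from 17570 and 7142 counts. All of its counts fell on 1 coding model, Pgm1-201. The gene that now carries the symbol Pgm2 (chromosome 5, 64092950 to 64128351), which acts mainly on pentose phosphates, had 0 counts in both. Pgm1 thus stood for the whole of phosphoglucomutase reads at these 2 loci.

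Ugp2 (chromosome 11, 21321138 to 21371201, minus strand) was at 237.8 TPM in pup 1 and 80.1 TPM in pup 3, from 23565 and 5432 counts, a 2.97-fold lower level in pup 3. Its transcripts start at separate first exons. Ugp2-201, from the upstream start, had 6307 counts (32.7% of TPM) in pup 1 and 0 in pup 3. Ugp2-202, from the downstream start, had 17256 counts (67.3%) in pup 1 and 5325 counts (89.9%) in pup 3, and so led in both. A short noncoding model of 558 nt, Ugp2-203, held 10.1% of the gene's TPM in pup 3 on 1.96% of its counts. The first coding bases of each form are shown because the choice of start sets the protein's beginning; capitals mark the start codon.
Ugp2-201: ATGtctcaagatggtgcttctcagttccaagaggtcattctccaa
Ugp2-202: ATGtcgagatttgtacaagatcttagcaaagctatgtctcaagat
The coding sequence of Ugp2-202 is 33 bases, or 11 codons, longer (508 against 497 codons), and that of Ugp2-201 forms its end, so the second line runs into the first.

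Shown are the 250 bases before each RefSeq start of Ugp2 (GRCm38.p6, minus strand), with motifs in capitals. The reason is that Ugp2-201, from the upstream start, had 0 counts in pup 3. All but 187 of its 2044 nt are shared with Ugp2-202. Its counts therefore rest on how reads were assigned, and use of a start was not measured. The downstream window, chr11:21370630-21370879, ends 152 bases before the first base of Ugp2-202 and lies within the first intron of Ugp2-201. The upstream window, chr11:21371268-21371517, ends 66 bases before Ugp2-201.
Ugp2 downstream start: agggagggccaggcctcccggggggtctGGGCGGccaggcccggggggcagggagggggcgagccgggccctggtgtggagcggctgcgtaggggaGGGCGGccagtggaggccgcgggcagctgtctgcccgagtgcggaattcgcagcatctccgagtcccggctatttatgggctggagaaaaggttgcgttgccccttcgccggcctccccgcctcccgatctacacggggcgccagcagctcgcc
Ugp2 upstream start: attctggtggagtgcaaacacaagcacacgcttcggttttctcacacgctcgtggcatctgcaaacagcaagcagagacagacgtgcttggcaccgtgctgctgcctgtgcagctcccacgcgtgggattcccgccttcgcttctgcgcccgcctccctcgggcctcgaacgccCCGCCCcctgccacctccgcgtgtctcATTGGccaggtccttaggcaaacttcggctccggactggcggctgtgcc
The downstream window holds 2 GC boxes (GGGCGG on either strand), 23 CpG and 73.6% GC. The upstream window holds 1 GC box, 1 CCAAT box (read as ATTGG) 49 bases before the start, 21 CpG and 64.0% GC. The median of all windows was 6 CpG. RefSeq windows were matched for 8 of the 9 genes (9 windows; Gys2 was not matched). Among them GGGCGG was in 7 of 9, against 32.7% of all 32851 windows, CCAAT in 4 of 9, against 33.8%, TATAAA in 1 of 9, against 12.4%, and the E-box CACGTG in 0 of 9, against 6.02%, both strands read. A match is a description of letters and not a site of binding.

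Of the 3 detected genes that build the particle, Gyg differed least between the livers and Gbe1 most. Gyg (chromosome 3, 20122084 to 20155317, minus strand) was at 140.4 TPM in pup 1 and 105.7 TPM in pup 3, from 9372 and 4841 counts, with 123.0 ± 24.6 TPM. Its reads lay almost wholly on the coding model Gyg-203. Glycogenin was the steadiest of the 6 shared genes, 1.33-fold lower in pup 3.

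Gys2 (chromosome 6, 142422613 to 142473109, minus strand) was the 1 shared gene that was higher in pup 3: 117.5 TPM in pup 1 and 230.8 TPM in pup 3, from 8952 and 13385 counts. The ratio was 1.96-fold, with a counting interval of 1.91 to 2.02 (exact Poisson, 95%, counting error only), so it lies at the edge of the 2-fold rule. The full-length model Gys2-201 held 96.3% of counts in pup 1 and 97.6% in pup 3, yet a model of 314 nt from the last exons, Gys2-202, held 31.3% and 22.8% of TPM, a unit that divides by length. On coding models of 1000 nt or more alone the levels were 80.7 and 178.3 TPM, 2.21-fold apart. Its muscle counterpart Gys1 (chromosome 7, 45434844 to 45456619, plus strand) had 0 counts in pup 1, which allows up to 0.0201 TPM (3 counts), and 1 count in pup 3. Skeletal muscle markers were likewise near 0: all 7 lay under 1 TPM, with a sum of 0.139 TPM in pup 1 and 0 in pup 3.

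Gbe1 (chromosome 16, 70313949 to 70569716, plus strand) was at 0.0535 TPM in pup 1, from 3 counts, and at 123.5 TPM in pup 3, from 6146 counts. The ratio was 2307-fold, with a counting interval of 789 to 11189.95. The branching enzyme was thus well covered in 1 liver and almost without reads in the library of the other, which was the deeper. Read depth does not cover RNA molecules lost before sequencing, so the low count does not show that the transcript was absent from that liver. Of all genes with a mean of 30 to 300 TPM, the range in which Gbe1 lies (61.78 TPM), 81.7% were detected in both libraries. In pup 3 the coding models Gbe1-201 and Gbe1-203 held 22.1% and 29.9% of TPM, and a retained-intron model of 658 nt, Gbe1-205, held 48.0% on 15.4% of counts. On coding models of 1000 nt or more alone Gbe1 was at 64.2 TPM in pup 3, so that its place among the 9 genes there was 2 by gene total, 4 as CPM (a share of counts without correction for length) and 6 by coding models. The 3 counts stand among 54817565 endogenous counts and the 6146 among 34792898.

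Glycogen breakdown was represented by Pygl (chromosome 12, 70190811 to 70231488, minus strand), at 236.5 TPM in pup 1 and 80.6 TPM in pup 3, from 26843 and 6245 counts. Its level was 2.93-fold lower in pup 3, nearly the ratio of Ugp2, and the coding model Pygl-201 held 99.6% and 99.1% of TPM. Phka2 (chromosome X, 160502166 to 160598878, plus strand) was at 6.64 TPM in pup 1, from 1041 counts, and had 0 counts in pup 3. With a limit of 3 counts per library its TPM was at least 140-fold lower there. This bound covers reads and not RNA molecules lost before sequencing. In pup 1 the coding model Phka2-203 held 79.3% of TPM and the noncoding Phka2-206 held 18.6%.

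**Figure D3:**
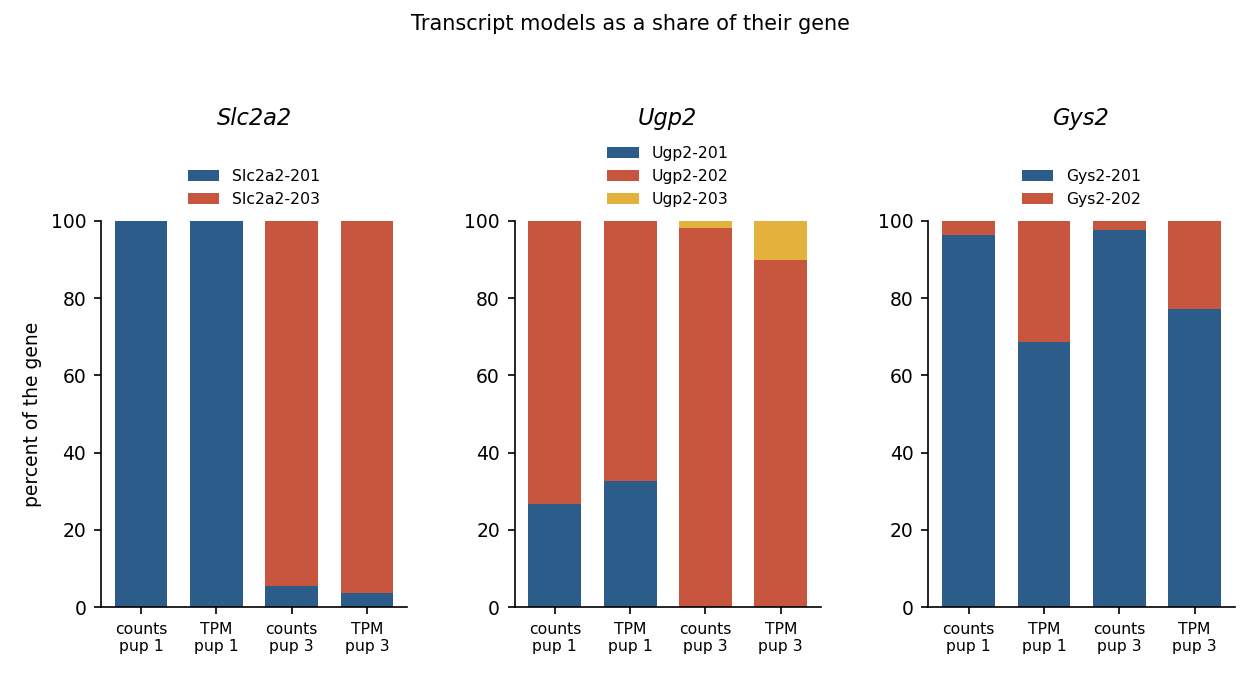
Share of each gene's counts and TPM taken by its transcript models (10% or more of TPM in either library), in percent, for Slc2a2, Ugp2 and Gys2. Slc2a2 changes from Slc2a2-201 to Slc2a2-203 between the pups, Ugp2-201 has a share only in pup 1, and short Gys2-202 takes 31.3% and 22.8% of TPM on 3.69% and 2.42% of counts.

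Across the 6 shared genes, 5 were lower in pup 3 and 1 higher, and 2, Ugp2 and Pygl, lay 2-fold or more apart. Of all 3555 genes detected in both, 20.1% were lower in pup 3 by 2-fold or more, beside 2 of the 6 members, and 24.6% were higher, beside 0 of 6. The median log2 ratio of pup 3 over pup 1 was -0.82 for the 6 members and 0.09 for all 3555 genes (0.11 for genes of 30 to 300 TPM). Of the 6 hepatocyte markers, 3 were higher and 3 lower in pup 3. Their sum was 12.6% of TPM in pup 1 and 10.5% in pup 3, and 6.18% and 6.23% without Trf, and their part in these ratios was not tested. Each ratio rests on 1 library per pup and has no replicate check. The number apart rose from 2 to 4 (3 lower and 1 higher) with coding models of 1000 nt or more alone, and likewise with CPM. The share of all genes apart was not computed under these settings, so the rise cannot be set beside it.

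**Figure D4:**
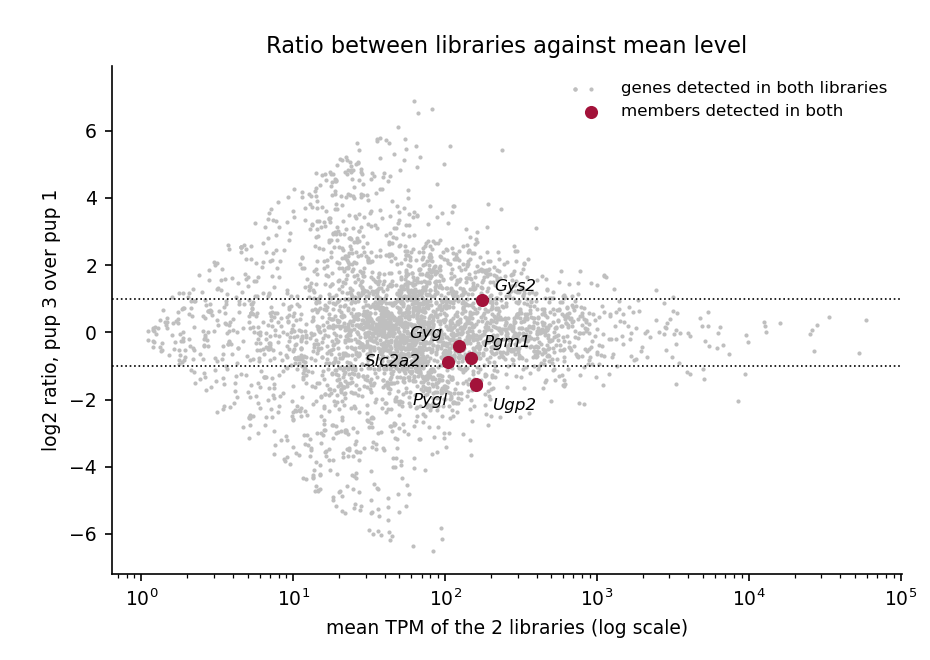
Log2 ratio of pup 3 over pup 1 against mean TPM (log scale) for the 3555 genes detected in both libraries (grey) and the 6 members among them (red). Dotted lines mark 2-fold; Ugp2 and Pygl coincide at -1.57 and -1.55, below the lower line, and Gys2 lies at 0.97, just under the upper one.

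Where liver and other forms of a protein exist, the liver form led in both libraries for 3 of 4 members compared: Gys2, Pygl and Slc2a2. Gys2 exceeded Gys1 by at least 5853-fold in pup 1. Bounds of this kind, here and below, rest on a limit of 3 reads and do not cover molecules lost before sequencing. Pygl exceeded the brain form Pygb 4.37-fold in pup 1, where Pygb was at 54.1 TPM (8600 counts), and at least 2933-fold in pup 3, where Pygb had 0 counts. The muscle form Pygm had 0 counts in both libraries. Phka2 exceeded the muscle form Phka1 by at least 539-fold in pup 1, and neither had a count in pup 3. On coding models of 1000 nt or more alone the number was 2, since Slc2a2 then lay below its partner Slc2a3 in pup 3.

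Among glucose transporters, Slc2a2 exceeded the widely expressed Slc2a1 19.9-fold in pup 1 (6.86 TPM) and by at least 1774-fold in pup 3 (0 counts). Slc2a3, a transporter of neurons and white blood cells, was at 0.0749 TPM (12 counts) in pup 1 and 38.7 TPM (3280 counts) in pup 3, which leaves Slc2a2 1.91-fold above it there. Of the 6 neutrophil markers, all detected in both, 2 were higher in pup 3 (S100a8 and S100a9) and 4 lower. Their sum was 0.581% of TPM in pup 1 and 0.838% in pup 3, and 0.248% and 0.168% without these 2, and their part in the level of Slc2a3 was not tested. The insulin-responsive Slc2a4 had 0 counts in both.

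Of the hexokinases, which phosphorylate glucose after its entry, Hk1, the widely expressed form, was at 81.6 TPM in pup 1 and had 1 count in pup 3. Hk3 was at 29.1 TPM in pup 1 and had 0 counts in pup 3, and Hk2 had 0 in both.

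**Figure D5:**
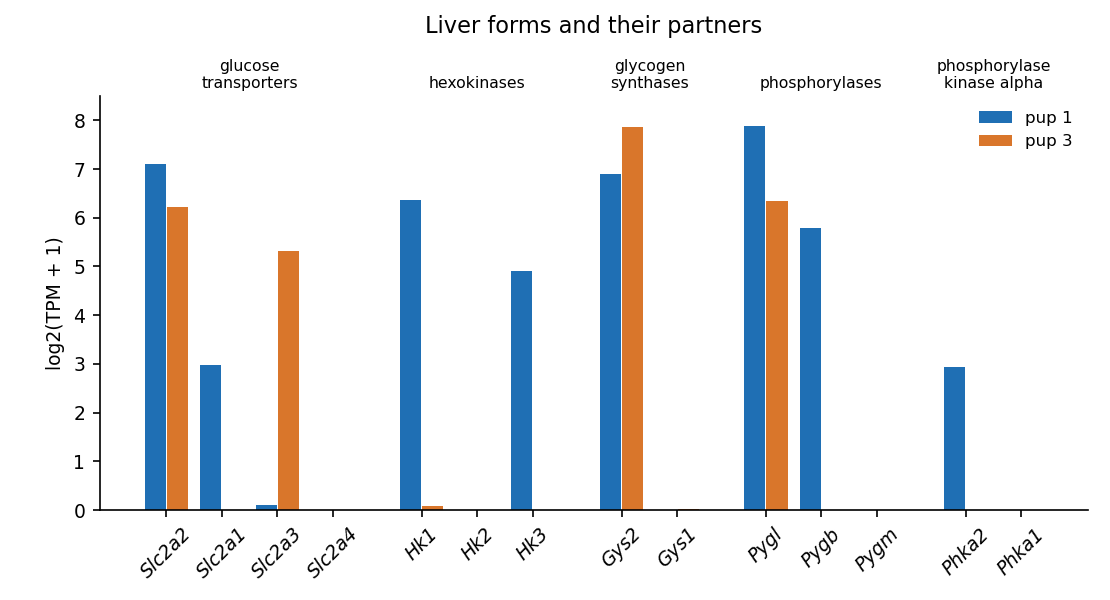
Level of liver forms and their partners as log2(TPM + 1), pup 1 in blue and pup 3 in orange, 1 library per bar. Gys2, Pygl and Slc2a2 stand above their partners in both libraries, Phka2 in pup 1 alone, and Hk1 and Hk3 are near 0 in pup 3.

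The wider pathway was read from 63 further genes, of which 15 were detected in both libraries, 21 in 1 (15 in pup 1 and 6 in pup 3) and 27 in neither. The 15 are 41.7% of the 36 found in either library, beside 46.3% of all genes, and among all genes found in 1 library alone 53.0% were in pup 1. Of the 15, 4 were higher and 3 lower in pup 3 by 2-fold or more, near the 24.6% and 20.1% of all genes detected in both. Glucose release was represented in both by the catalytic subunit of glucose-6-phosphatase (G6pc, 481.5 and 620.2 TPM) and its transporter (Slc37a4, 641.2 and 369.9 TPM), both above every one of the 9 genes in both libraries.

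Phosphorylase kinase was read mainly through calmodulin, its calcium-binding subunit and a protein of many other complexes, with Calm2 at 456.5 TPM in pup 1 and 376.1 TPM in pup 3. The beta subunit Phkb and the catalytic Phkg1 had 0 counts in both, and the catalytic Phkg2 of liver had 1 count, in pup 1. Phka2 was therefore the sole subunit specific to the kinase above 1 TPM, and only in pup 1. Such low counts do not cover RNA molecules lost before sequencing, so they do not show that the other subunits were absent. Phkb, Phkg1 and Phkg2, like the glucagon receptor Gcgr (42.2 TPM in pup 1 and 0 counts in pup 3) and the phosphatase subunits Ppp1r3b and Ppp1r3c, lie outside the rule for named genes and were picked once their values were known. The same holds for Prkaca and Prkacb, named below.

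Protein phosphatase 1 activates glycogen synthase, and is brought to glycogen by targeting subunits. The catalytic Ppp1ca was at 126.4 and 416.2 TPM and Ppp1cb at 21.54 and 18.03 TPM. Of 7 targeting subunits only Ppp1r3c was detected, at 40.4 TPM in pup 3 with 0 counts in pup 1, and Ppp1r3b, the main form of liver, had 0 counts in both. Of all 43346 genes listed, 7678 were detected in either library. A count of 0 does not cover RNA molecules lost before sequencing. Of the kinases upstream, glycogen synthase kinase Gsk3b was at 16.4 and 1.78 TPM and Akt1, in the insulin pathway, at 30.9 and 10.4 TPM. The regulatory subunits of protein kinase A, which relays glucagon, lay close together (Prkar1a at 163.9 and 156.3 TPM, Prkar2a at 27.6 and 33.5 TPM). Its catalytic Prkaca did not, at 7.25 TPM in pup 1 and 0.127 TPM (8 counts) in pup 3. The catalytic Prkacb had 2 counts in pup 1 and 0 in pup 3. The subunits of AMP-activated kinase detected in both were Prkag1 at 90.59 and 95.61 TPM and Prkab1 at 34.19 and 92.79 TPM. The insulin receptor Insr was at 1.47 and 7.63 TPM, and lysosomal acid glucosidase Gaa, which degrades glycogen in lysosomes, at 34.6 and 16.5 TPM.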

How the data were processed

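RNA of 2 newborn livers was measured, 1 library per pup. Per the labels, a mirVana kit served for extraction and a SmartSeq protocol for the libraries. Per the deposited notes, values refer to mm10 and GENCODE M4. Aligner, quantifier and strand use were not given in the sources used here. No molecular identifiers appear, so intervals cover counting error only.

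The authors deposited expected counts (estimated reads per gene or transcript) and TPM (corrected for length, summing to 1000000 with spike-ins). The deposited posterior mean TPM, treated as a score, served as an alternative, and the deposited isoform percent is the share of a gene's TPM that each transcript holds.

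Spike-ins (3.76% and 3.28% of counts) were removed and TPM was rescaled. Names and coordinates came from GENCODE M21 (GRCm38) by identifier without version, which named 42462 genes (98.0%); transcript lengths are those of the deposited tables, so Slc2a2-201 is 2573 nt there and 5569 nt in M21. Promoter windows came from RefSeq. All 102 listed symbols matched. Effective length was 99 nt below listed length, so short models get high TPM.

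Detected means 1 TPM or more, and apart means 2-fold or more. A count of 0 allows up to 3 counts, converted to TPM with the shortest coding model of at least 1000 nt. Intervals are exact Poisson at 95%. The members and gene lists were chosen with earlier results of these data known. The naming rule took all members, other pathway genes detected in both libraries, and isozyme partners; transcripts are named from 10% of their gene. Some genes that the rule takes are not reported here. The fold rule was tested on simulated data with counting error alone. That simulation did not cover molecules lost before sequencing or differences between library preparations. Alternatives covered unit, spike-ins, protein-coding genes, thinning, thresholds, pseudocounts, scaling (spike-in totals and, with expected counts rounded, edgeR TMM or DESeq2 size factors), each library alone and, added after seeing the data, coding models of 1000 nt or more. Scaling used R 4.3.3 with DESeq2 1.42.0 and edgeR 4.0.16, and the rest ran in Python 3.11.15 with pandas 2.3.3, numpy 2.4.6, matplotlib 3.10.9 and scipy 1.17.1.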

Additional observations from a re-analysis of the deposited data

How the results depend on the processing

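The number of members detected in both libraries was 6 under every unit, threshold and count minimum tried, and 7 in each library taken alone. Their summed level was 0.0805% to 0.106% of TPM with 1 library left out, 0.0817% to 0.0997% under the other TPM settings, and 0.159% as CPM, which is not corrected for length. The number 2-fold or more apart was 2. It was 4 (3 lower in pup 3, 1 higher) as CPM, 4 (3 lower, 1 higher) on protein-coding models of 1000 nt or more, 5 at 1.5-fold and 0 at 4-fold. It was 3 with edgeR TMM or DESeq2 factors, which shift every log2 ratio by -0.13 and -0.12 and carry Slc2a2 past the threshold (-1.01 with TMM), and 3 with spike-in totals, which shift it by 0.32 and carry Gys2 past it (1.29). None of these 3 scalings turned the sign of a shared member. Shares over all genes were computed at the main setting alone, so the counts apart under other settings have none beside them. The liver form led its partners for 3 of 4 members, for 4 with posterior mean TPM, for 2 on coding models of 1000 nt or more, and for 3 to 4 in single libraries. Of 63 member levels recomputed, 8 moved by at least the SD between libraries. That SD is wide for Gbe1 (4.87 in log2) and Phka2 (2.07), for which 0 levels moved. The number therefore does not measure how stable the levels are. A ratio has no value with a library left out. No paired analysis was possible because the labels give 1 group.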
